A study of Bos taurus with 6 samples.

Results

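The expression of 82 genes for splicing factors and small nuclear ribonucleoprotein (snRNP) proteins was examined in bovine blastocysts, out of 36075 genes listed. The members were all rows whose gene symbol starts with SF3A or SF3B, SNRP, PRPF, SRSF, HNRNP, LSM or U2AF in the numbered forms of those families, together with TXNL4A and TXNL4B. The control blastocysts came from oocytes matured in vitro without MT (melatonin), and the MT-treated blastocysts from oocytes matured with 1e-07 mol/L MT in the maturation medium. Oocytes of both groups were taken from slaughterhouse ovaries, fertilized in vitro and cultured to the blastocyst stage, and the labels give no difference between the groups other than MT. There were 3 libraries in each group, made from pools of 3 blastocysts. The pools of a group came from separate production runs. The labels do not give the age of the donors or the sex of the embryos, and a pool holds all cell types of the blastocyst.

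Splicing removes introns from the precursor of messenger RNA. It is carried out by the spliceosome, in which the U1 snRNP recognizes the start of an intron, the U2 snRNP binds the branch site near its end with the help of the U2AF factors, and the U4/U6.U5 tri-snRNP then joins and is rearranged into the catalytic form. A ring of Sm proteins sits on most spliceosomal small nuclear RNAs, a ring of LSm proteins sits on U6, and SR and hnRNP proteins bind the transcript and help to decide which splice sites are used. Embryos depend on this machinery once their own genome is transcribed.

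Levels were given in TPM, which corrects the reads for gene length and library total, so that levels of different genes can be set side by side. TPM keeps no counts, so the values themselves do not show the sequencing depth, which was not used here. Between 8854 and 8953 genes were above 0 TPM in control and between 14372 and 14408 in the MT-treated libraries. The values were compared as log2(TPM + 1) with limma, whose estimate of the spread draws on all genes, over the 11953 genes that reached 1 TPM in 3 or more libraries. Over the 5988 genes that reached 1 TPM in every library, the library medians were lower by 0.48 on the log2 scale in the MT-treated group (4.906 against 5.385). Adding this amount back, called median centring below, turned the direction of small falls, and the value after centring is given where such a gene is described. In pooled embryos, fewer cells of a type and less RNA per cell cannot be told apart.

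Of the 82 splicing genes, 80 reached the level required for testing, and LSM11 and PRPF40B were listed at 0 in all 6 libraries. At an adjusted p under 0.05, 35 of the 80 rose and 39 fell with MT treatment, and 6 were not called. Among all tested genes, 95.7% were called, 61.6% as higher and 34.1% as lower, so being called does not set the splicing genes apart. The shares among the splicing genes were 43.8% higher and 48.8% lower. When a size of 2-fold or more on that scale was also required, 23 were higher (background 51.0%) and 9 were lower (background 19.6%). After median centring, 53 splicing genes were higher and 24 lower, in place of 35 and 39, and of all tested genes 70.4% were higher and 25.4% lower. The 6 genes without a call (LSM7, SF3A2, SRSF9, SRSF11, HNRNPAB and HNRNPDL) were then all called as higher, with log2 fold changes between 0.41 and 0.61. Quantile normalization gave 38 higher and 38 lower splicing genes, beside 46.4% higher and 44.4% lower among all tested genes, so the shares then lay close to the background. The groups did not overlap in 74 of the 80 genes, against 96.1% of all tested genes.

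The splicing genes were abundant and mostly present in both groups. Of the 80, 68 (85%) were above 0 in all 6 libraries, against 57.9% of all tested genes. Listed at 0 in all 3 control libraries were 11 (13.8%), against 33.8% of the tested genes, and no splicing gene was listed at 0 in all 3 MT-treated libraries, against 3.01%. Among genes that averaged 20 to 100 TPM after MT treatment, 4 of 33 splicing genes (12.1%) were at 0 throughout control, against 23.8% of tested genes, and at 5 to 20 TPM it was 5 of 9, against 47.2%. Genes of the core spliceosome such as PRPF31, PRPF18 and RBM22 were among those at 0 in control, so a value of 0 is given here only as listed and not as absence of the transcript. The median fitted difference was -0.03 over the splicing genes and 1.12 over all tested genes, but -0.01 and 0.04 after quantile normalization, and the median size of the difference without its sign was 0.88 and 1.98. Restricted to genes above 0 in all 6 libraries, the median differences were -0.21 and -0.19. These medians moved with the level of the genes. Over genes with a mean of at least 100 TPM, the median size of the difference was 0.51 for 35 splicing genes and 0.45 for 1311 tested genes, and between 20 and 100 TPM it was 0.58 for 21 splicing genes and 1.22 for 3446 tested genes. Below 20 TPM it was 2.72 for 24 splicing genes and 2.78 for 7196 tested genes. The splicing genes together took between 1.63% and 1.64% of the listed TPM in control and between 1.5% and 1.51% in the MT-treated libraries. Replicates were close: for the 65 splicing genes that reached 1 TPM in every library, the coefficient of variation had a median of 2.34% among control and 2.97% among MT-treated libraries.

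**Figure D1:**
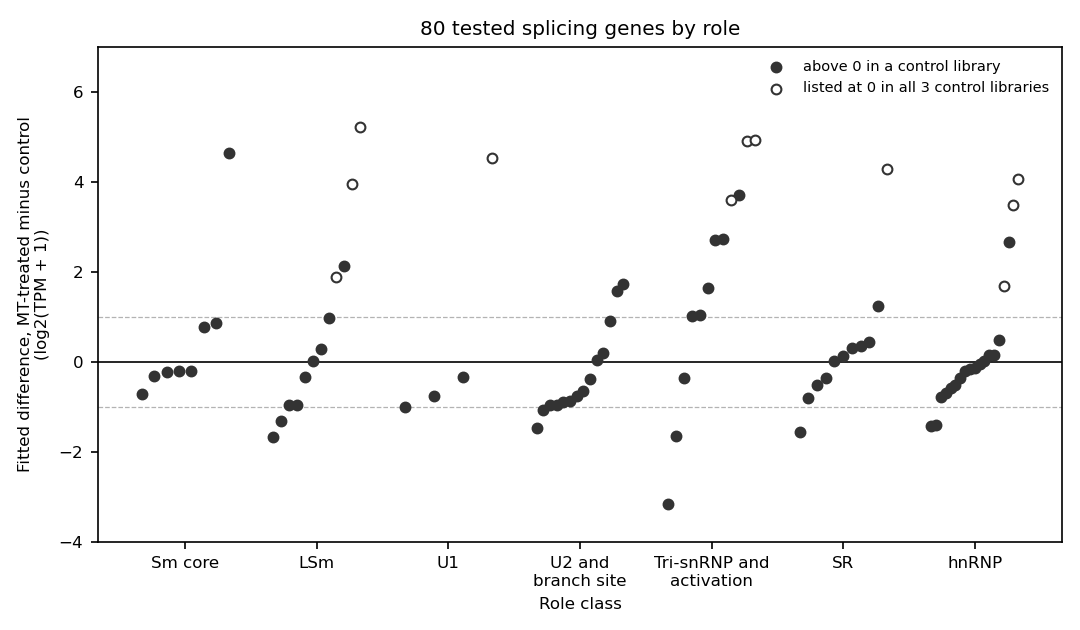
Fitted difference between MT-treated and control blastocysts (log2(TPM + 1), y axis) for the 80 tested splicing genes, grouped by role (x axis), with the standard error of limma as bars that are mostly hidden by the points; open points are the 11 genes listed at 0 in all 3 control libraries, whose plotted height depends on the pseudocount. Filled points ran from -3.17 for TXNL4B to 4.65 for SNRPN, and the tri-snRNP and activation class had most genes above the dashed line of a 2-fold rise (9 of 12).

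The Sm core held the most abundant splicing genes, with 3 of its 8 genes higher and 5 lower, or 7 higher and 1 lower after median centring. SNRPN, which encodes the SmN protein and is an imprinted gene in mammals, had 3.99, 4.01 and 4.47 TPM in control and 132, 123 and 129.6 TPM after MT treatment. The lowest MT-treated value was thus far above the highest control value, and the means differed 30.8-fold (log2 fold change 4.65, standard error 0.05, adjusted p = 1.64e-09 by limma). SNRPB, whose protein SmB is closely related to SmN, had 213, 209.8 and 218 TPM in control and 388, 379 and 399 TPM after MT treatment. It rose 1.82-fold, so both genes of this pair were higher in the MT-treated group. SNRPN made up 24.8% ± 0.506 (SD, n = 3) of the summed TPM of the pair in MT-treated blastocysts and 1.91% ± 0.0887 (SD, n = 3) in control. The transcripts of the pair are similar enough that reads could be assigned to either, and the values of both are uncertain to that extent.

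SNURF lies at the same locus as SNRPN and can be read from the same transcript, and it was looked up after the values of SNRPN were seen. It had 24.4, 22.4 and 23.7 TPM in control and 3.14, 6.63 and 13.7 TPM after MT treatment. SNURF was thus lower where SNRPN was higher (log2 fold change -1.66, standard error 0.44, adjusted p = 0.0108 by limma), with a wide spread among the MT-treated libraries. Reads that overlap both genes can be counted for either, so the split between SNURF and SNRPN is uncertain.

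SNRPD1 was the other Sm gene that rose, from 379, 368 and 371 TPM in control to 637, 661 and 611 TPM after MT treatment (1.71-fold, adjusted p = 6.53e-07 by limma). SNRPE was the highest of all splicing genes, with 2697, 2679.5 and 2581 TPM in control and 2285, 2301 and 2243 TPM after MT treatment. Its groups did not overlap, although the difference was small (log2 fold change -0.22, standard error 0.02), and it became 0.26 after median centring. SNRPD3, SNRPD2 and SNRPG showed the same pattern, with log2 fold changes of -0.21, -0.21 and -0.31 that turned to 0.27, 0.27 and 0.17 after median centring. SNRPF fell from 82.0 ± 3.44 TPM to 49.6 ± 5.45 TPM (SD, n = 3 per group), a log2 fold change of -0.72 that stayed below 0 at -0.24 after median centring. Each of the 7 proteins of the Sm ring is present once in a ring, but their transcript levels were far apart. The highest of the 7 genes without SNRPN was 32.4 times the lowest in control and 45.9 times the lowest in MT-treated blastocysts, with SNRPE highest and SNRPF lowest in both.

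Of 12 tested LSm genes, 6 were higher and 5 lower, or 8 and 4 after median centring. Of LSM2 to LSM8, 2 were higher and 4 lower, or 4 and 3 after median centring. LSM2 to LSM8 form the nuclear ring on U6, and LSM1 takes the place of LSM8 in a cytoplasmic ring that promotes mRNA decapping. LSM8 had 36.7, 38.3 and 38.7 TPM in control and 164, 178 and 168 TPM after MT treatment. LSM1 had 129, 134 and 142 TPM in control and 64.1, 72.0 and 72.1 TPM after MT treatment. LSM8 thus rose 4.48-fold (log2 fold change 2.13, standard error 0.04, adjusted p = 1.31e-08 by limma) while LSM1 was 1.94-fold lower (log2 fold change -0.95, standard error 0.06, adjusted p = 6.48e-06 by limma). LSM8 made up 22% ± 0.436 of the summed TPM of LSM1 and LSM8 in control and 71.0% ± 0.963 in MT-treated blastocysts (SD, n = 3 per group), without overlap between the groups.

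Of the subunits that the nuclear and the cytoplasmic ring share, LSM4 rose and 4 others fell. LSM4 had 114, 116 and 112 TPM in control and 227, 223 and 225 TPM after MT treatment, a 1.97-fold rise. LSM5 fell from 195 ± 5.96 TPM to 78.1 ± 3.64 TPM and LSM6 from 263 ± 15.1 TPM to 134 ± 8.66 TPM (SD, n = 3 per group). LSM3, the most abundant LSm gene, had 947 ± 21.7 and 753 ± 24.5 TPM (SD, n = 3 per group), a log2 fold change of -0.33 that turned to 0.15 after median centring. LSM7 was not called, with 393, 399.6 and 410.2 TPM in control and 402, 408 and 410.1 TPM after MT treatment (adjusted p = 0.352 by limma), but it was called as higher after median centring (0.50) and after quantile normalization (0.15). The row named LSM2 fell from 22.9 ± 2.31 TPM to 6.52 ± 0.696 TPM (SD, n = 3 per group), but its deposited description names a heat shock protein gene that RefSeq lists next to LSM2, so the identity of that row is uncertain. Taken as LSM2, it was the lowest of the ring in both groups.

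Other LSm genes act outside these rings. LSM14A, a protein of processing bodies, was listed at 0 in all control libraries, against 33.9, 35.4 and 38.9 TPM after MT treatment. LSM10, which with LSM11 replaces 2 Sm proteins in the U7 snRNP that processes histone mRNA, was also listed at 0 in all control libraries, against 14.2, 14.9 and 14.4 TPM after MT treatment. Its partner LSM11 was listed at 0 throughout. LSM14B, at 0 in control, reached 2.96, 2.50 and 2.59 TPM after MT treatment, and its direction was reversed by quantile normalization. LSM12 rose from 47.5 ± 0.682 TPM to 58.4 ± 0.160 TPM (SD, n = 3 per group).

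**Figure D2:**
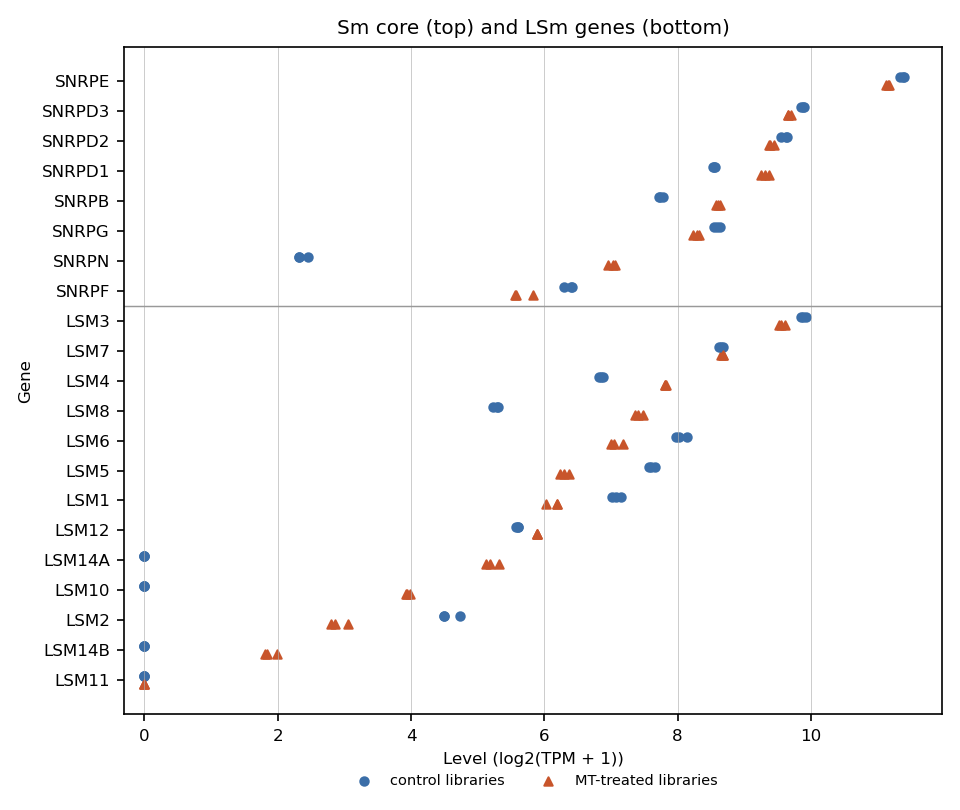
Level of each Sm core and LSm gene (log2(TPM + 1), x axis) in the 3 control libraries (circles) and the 3 MT-treated libraries (triangles), 1 gene a row, ordered within each class by the MT-treated mean. The circles and triangles of SNRPN and LSM8 lie far apart with MT-treated above control, those of LSM7 overlap, and LSM14A, LSM10 and LSM14B sit at 0 in control.

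Of the proteins of the U1 snRNP and its partners, SNRPA was lower, SNRPC was lower as deposited but higher after median centring, and PRPF39 was higher. SNRPA, which binds a stem-loop of the U1 RNA, had 95.1, 92.7 and 97.2 TPM in control and 47.1, 46.1 and 48.2 TPM after MT treatment. This was a 2.01-fold lower mean (log2 fold change -1.0, standard error 0.03, adjusted p = 1.14e-07 by limma). SNRPC, which helps U1 to bind the start of the intron, had 696 ± 7.06 and 553 ± 12 TPM (SD, n = 3 per group), a log2 fold change of -0.33 that turned to 0.15 after median centring. PRPF39, another U1-associated factor, was listed at 0 in all control libraries, against 21.2, 24.3 and 20.9 TPM after MT treatment, so it moved against SNRPA.

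Among the 14 genes of the U2 snRNP and branch site recognition, 9 were lower, 4 were higher and 1 was not called, and after median centring 8 were lower and 5 higher. The subunits of the SF3A and SF3B complexes, which hold U2 on the branch site, did not move together. SF3A1 had 5.76, 5.53 and 5.48 TPM in control and 21.2, 20.8 and 20.8 TPM after MT treatment. SF3A3 had 127, 125 and 123 TPM in control and 46.2, 43.9 and 43.1 TPM after MT treatment. SF3A2 had 19.4, 20.6 and 20.03 TPM in control and 20.5, 19.4 and 21.5 TPM after MT treatment. Of the 3 subunits of SF3A, 1 thus rose (SF3A1, log2 fold change 1.74, standard error 0.03, adjusted p = 1.45e-08 by limma), 1 fell (SF3A3, log2 fold change -1.47, standard error 0.03, adjusted p = 3.37e-08 by limma) and 1 was not called (SF3A2, adjusted p = 0.529 by limma). The highest of the 3 subunits was 22.3 times the lowest in control and 2.17 times the lowest in MT-treated blastocysts.

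In SF3B, 5 of 6 subunits were lower and SF3B2 was slightly higher, or 4 lower and 1 higher after median centring. SF3B3 fell from 47.5 ± 0.208 TPM to 22.2 ± 0.947 TPM, SF3B4 from 102 ± 4.24 TPM to 52.7 ± 2.75 TPM and SF3B5 from 269.7 ± 5.39 TPM to 145 ± 3.00 TPM (SD, n = 3 per group). SF3B6, which contacts the branch point adenosine, had 473, 501 and 558 TPM in control and 285, 305 and 317 TPM after MT treatment. SF3B1, the large subunit that encloses the branch site, had 152, 153 and 146 TPM in control and 122, 115 and 109.7 TPM after MT treatment. Its log2 fold change of -0.38 became 0.10 after median centring and -0.10 after quantile normalization, and it was called under neither. The other falling SF3B subunits stayed below 0 under both. SF3B2 rose from 25.2 ± 0.410 TPM to 28.9 ± 0.527 TPM (SD, n = 3 per group), a log2 fold change of 0.19 that became 0.67 after median centring.

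SNRPA1 and SNRPB2 sit together on the U2 RNA, and they split. SNRPA1 rose from 143 ± 3.19 TPM to 271 ± 3.55 TPM, while its binding partner SNRPB2 fell from 201 ± 7.92 TPM to 103 ± 5.21 TPM (SD, n = 3 per group). Their log2 fold changes were 0.91 (standard error 0.02, adjusted p = 5.31e-08 by limma) and -0.96 (standard error 0.05, adjusted p = 1.81e-06 by limma), and both directions held after median centring and quantile normalization. U2AF1, which reads the AG at the end of the intron, fell from 199 ± 4.58 TPM to 125 ± 2.66 TPM and its relative U2AF1L4 from 41.3 ± 0.862 TPM to 22.1 ± 1.69 TPM (SD, n = 3 per group). U2AF2, which binds the pyrimidine tract and pairs with U2AF1, was at 0.04, 0.06 and 0.07 TPM in control and at 2.13, 2.05 and 2.22 TPM after MT treatment. It was the lowest gene of the class in both groups, and quantile normalization reversed its direction, with a log2 fold change of -0.95.

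The 12 genes of the tri-snRNP and of the steps that activate the spliceosome had a median difference of 2.17, with 9 higher and 3 lower, or 10 and 2 after median centring. After quantile normalization the median was 0.92, with 8 higher and 3 lower. Most of these genes were low. The 11 with a mean under 20 TPM had a median difference of 2.7 and 8 rises of at least 2-fold, and over all tested genes of that level the median was 2.52 and 73.8% rose by that much, so the class was close to other genes of its level. Of the 9 rises, 3 were listed at 0 in all control libraries. PRPF18, which acts in the second catalytic step, was one of these, with 31.6, 29.4 and 27.4 TPM after MT treatment. PRPF38B had 28.2, 29.9 and 29.3 TPM after MT treatment and PRPF31, which binds U4, had 11.2, 11.1 and 11 TPM, both with 0 in all control libraries. PRPF3 of the U4/U6 snRNP had 0.02, 0 and 0 TPM in control and 6.05, 5.41 and 5.22 TPM after MT treatment. After quantile normalization the difference of PRPF3 was 0.04 and no longer called.

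Other genes of the class were present at low levels in control. PRPF4B, a kinase of the tri-snRNP, had 0.71, 0.89 and 0.82 TPM in control and 23.5, 22.1 and 22.2 TPM after MT treatment. PRPF38A, which is needed for activation, had 4.22, 4.35 and 4.56 TPM in control and 34.3, 36.1 and 34.4 TPM after MT treatment, a 7.99-fold higher mean. PRPF8, the scaffold at the catalytic centre, rose from 6.11 ± 0.0603 TPM to 21.2 ± 0.382 TPM and PRPF6, which bridges U5 and U4/U6, from 11 ± 0.488 TPM to 23.2 ± 0.815 TPM (SD, n = 3 per group). PRPF4, the partner of PRPF3, had 16.7 ± 0.248 and 12.8 ± 0.182 TPM (SD, n = 3 per group), and its log2 fold change of -0.36 turned to 0.12 after median centring and was -1.63 after quantile normalization. PRPF19, the ubiquitin ligase at the core of the complex named after it, had 3.47, 3.18 and 3.00 TPM in control and 0.30, 0.34 and 0.42 TPM after MT treatment. PRPF19 was thus low in both groups and 9.10-fold lower in the MT-treated group.

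TXNL4A and TXNL4B are thioredoxin-like proteins of the spliceosome, and TXNL4A is a subunit of the U5 snRNP. TXNL4A had 64.2, 65.7 and 68.4 TPM in control and 134, 143 and 134 TPM after MT treatment. It rose 2.07-fold (log2 fold change 1.04, standard error 0.04, adjusted p = 3.44e-07 by limma), without overlap between the groups. TXNL4B had 36.4, 36.8 and 35.6 TPM in control and 2.87, 3.47 and 3.11 TPM after MT treatment. It was 11.5-fold lower, the deepest fall among the 80 genes (log2 fold change -3.17, standard error 0.06, adjusted p = 1.47e-08 by limma), so the pair moved in opposite directions. TXNL4A was 1.76, 1.79 and 1.92 times TXNL4B in control, and 46.8, 41.1 and 43.1 times TXNL4B after MT treatment. TXNL4B made up 35.4% ± 1.04 of the summed TPM of the pair in control and 2.24% ± 0.143 in MT-treated blastocysts (SD, n = 3 per group). The study had itself selected TXNL4B on these samples, so its fall is not independent evidence.

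**Figure D3:**
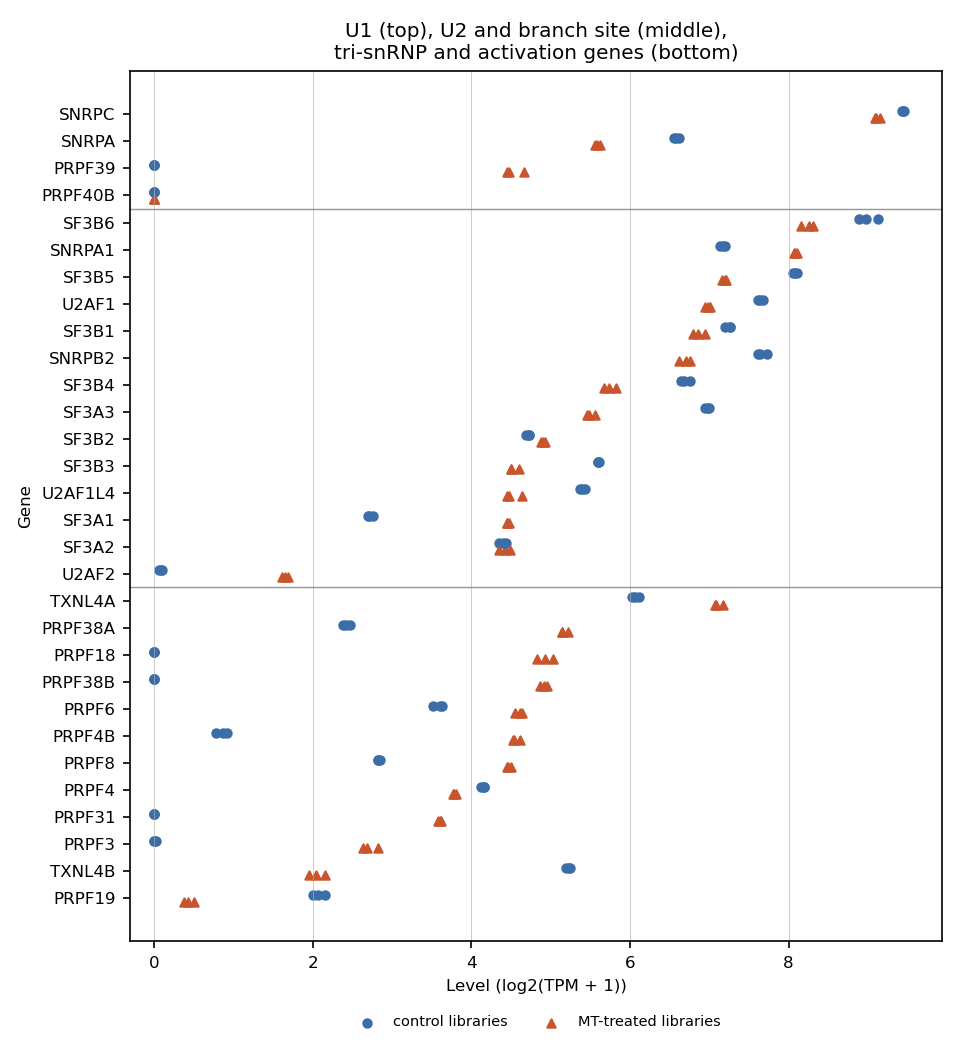
Level of the genes of the U1, U2 and tri-snRNP classes described here (log2(TPM + 1), x axis) in the 3 control libraries (circles) and the 3 MT-treated libraries (triangles), 1 gene a row, ordered within each class by the MT-treated mean. In the U2 class most triangles lie left of the circles, and in the tri-snRNP class 9 of 12 genes have triangles to the right, with TXNL4B, PRPF4 and PRPF19 as the exceptions.

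The 11 SR genes, whose proteins bind exonic enhancers and promote the use of nearby splice sites, were divided between 5 rises, 4 falls and 2 without a call, or 8 rises and 2 falls after median centring. SRSF1 had 12.2, 12.1 and 13.4 TPM in control and 30.6, 31.4 and 31.1 TPM after MT treatment, a 2.48-fold higher mean (log2 fold change 1.24, standard error 0.04, adjusted p = 3.64e-07 by limma). SRSF4 moved the other way, with 25.1, 25.9 and 26.3 TPM in control and 8.10, 8.33 and 7.97 TPM after MT treatment (log2 fold change -1.55, standard error 0.03, adjusted p = 2.94e-08 by limma). SRSF7, SRSF3 and SRSF2 showed small rises, with log2 fold changes of 0.31, 0.36 and 0.43, or 0.79, 0.84 and 0.91 after median centring. SRSF7 rose from 439 ± 3.72 TPM to 545 ± 3.41 TPM, SRSF3 from 385 ± 5.28 TPM to 494 ± 9.20 TPM and SRSF2 from 122 ± 2.60 TPM to 164 ± 6.70 TPM (SD, n = 3 per group).

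SRSF10 and SRSF12 are related SR proteins that can repress splicing. SRSF10 fell from 214 ± 7.27 TPM to 122 ± 1.53 TPM (SD, n = 3 per group), while SRSF12 was listed at 0 in all control libraries, against 19.4, 18.5 and 17.3 TPM after MT treatment. SRSF6 fell from 51.7 ± 1.37 TPM to 35.8 ± 0.567 TPM (SD, n = 3 per group), and its log2 fold change of -0.52 shrank to -0.04 with median centring, which ended its call. SRSF5 had a log2 fold change of -0.35, which turned to 0.13 after median centring. SRSF11 was not called, with 62.8, 60.9 and 61.2 TPM in control and 62.8, 62.7 and 60.9 TPM after MT treatment. SRSF9 was also not called (adjusted p = 0.119 by limma), with 294, 298 and 328 TPM in control and 315, 325 and 365 TPM after MT treatment.

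Of the 19 hnRNP genes, whose proteins coat the nascent transcript and often repress splice sites, 7 were higher, 10 were lower and 2 were not called, whereas median centring gave 13 rises and 5 falls. The most abundant, HNRNPA1, had 728, 737 and 811 TPM in control and 435, 449 and 512 TPM after MT treatment. HNRNPA1 has near-identical copies in mammalian genomes, and reads shared with them make its value uncertain. HNRNPA2B1 fell from 473 ± 3.31 TPM to 273 ± 9.71 TPM (SD, n = 3 per group). For both, the log2 fold change (-0.70 and -0.79) stayed below 0 after median centring, at -0.23 and -0.31.

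The pairs HNRNPL with HNRNPLL and HNRNPH1 with HNRNPH2 moved in opposite directions, unlike HNRNPA1 with HNRNPA2B1. HNRNPL, which binds CA-rich sequences, had 94.0, 94.5 and 95.6 TPM in control and 33.6, 35.4 and 36.3 TPM after MT treatment. HNRNPLL, its paralog, had 4.60, 4.47 and 5.07 TPM in control and 32.3, 37.2 and 36.3 TPM after MT treatment. HNRNPL fell (log2 fold change -1.41, standard error 0.03, adjusted p = 4.77e-08 by limma) and HNRNPLL rose (log2 fold change 2.67, standard error 0.07, adjusted p = 7.40e-08 by limma), so that HNRNPLL made up 4.74% ± 0.268 of their summed TPM in control and 50.1% ± 1.12 in MT-treated blastocysts (SD, n = 3 per group). HNRNPH1, which binds runs of G, had 178, 185 and 181 TPM in control and 65.8, 67.6 and 67.5 TPM after MT treatment. Its paralog HNRNPH2 was listed at 0 in all control libraries, against 10.02, 10.1 and 10.2 TPM after MT treatment. The sum of HNRNPH1 and HNRNPH2 was 181 ± 3.65 TPM in control and 77.1 ± 1.12 TPM in MT-treated blastocysts (SD, n = 3 per group).

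HNRNPUL1 and HNRNPUL2, relatives of HNRNPU, were listed at 0 in all control libraries and had 15.7, 16 and 15.8 TPM and 2.20, 1.92 and 2.49 TPM after MT treatment, with the direction of HNRNPUL2 reversed by quantile normalization. HNRNPU itself had 57.0 ± 1.81 and 49.3 ± 2.35 TPM (SD, n = 3 per group), a log2 fold change of -0.21 that turned to 0.27 after median centring. HNRNPC, which binds runs of U, rose from 101 ± 2.52 TPM to 140.4 ± 1.78 TPM (SD, n = 3 per group). HNRNPH3 fell from 87.4 ± 2.32 TPM to 58.0 ± 2.12 TPM and HNRNPM from 202 ± 6.12 TPM to 141 ± 4.197 TPM (SD, n = 3 per group), and after median centring HNRNPH3 stayed called at -0.11 while HNRNPM, at -0.03, did not. HNRNPA3 and HNRNPF rose by small amounts, with a log2 fold change of 0.15 for each, and HNRNPA3 lost its call without control replicate 1 (adjusted p = 0.0543 by limma) or MT-treated replicate 3 (adjusted p = 0.0518 by limma). HNRNPAB was not called, with 281, 281 and 286 TPM in control and 285, 286 and 287 TPM after MT treatment. HNRNPDL was not called either, with 54.8, 54.6 and 52.7 TPM in control and 53.2, 52.2 and 49.4 TPM after MT treatment, a log2 fold change of -0.06 that turned to 0.41 after median centring. The falls of HNRNPK, HNRNPD and HNRNPR, at -0.37, -0.15 and -0.14, turned to 0.11, 0.33 and 0.34 after median centring.

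**Figure D4:**
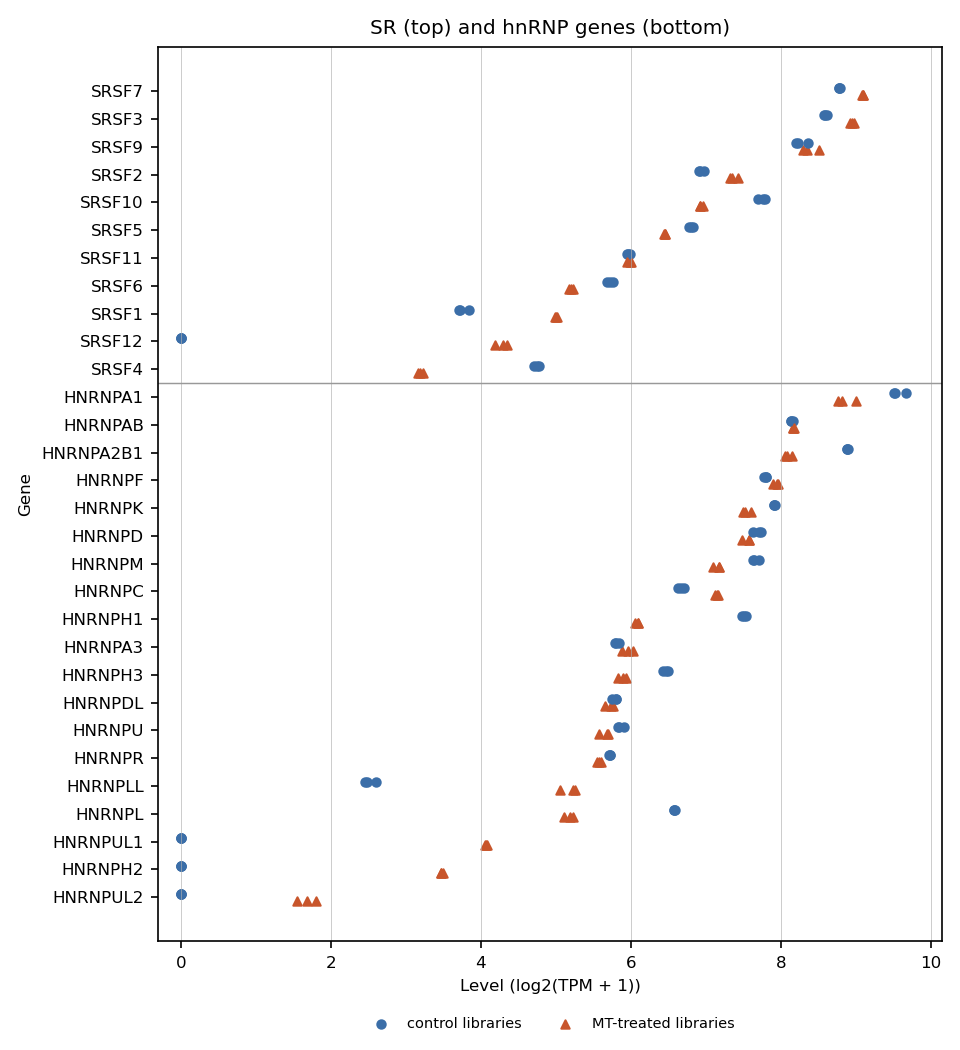
Level of each SR and hnRNP gene (log2(TPM + 1), x axis) in the 3 control libraries (circles) and the 3 MT-treated libraries (triangles), 1 gene a row, ordered within each class by the MT-treated mean. Circles and triangles lie close together for most abundant genes, and SRSF12, HNRNPUL1, HNRNPH2 and HNRNPUL2 sit at 0 in control.

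**Figure D5:**
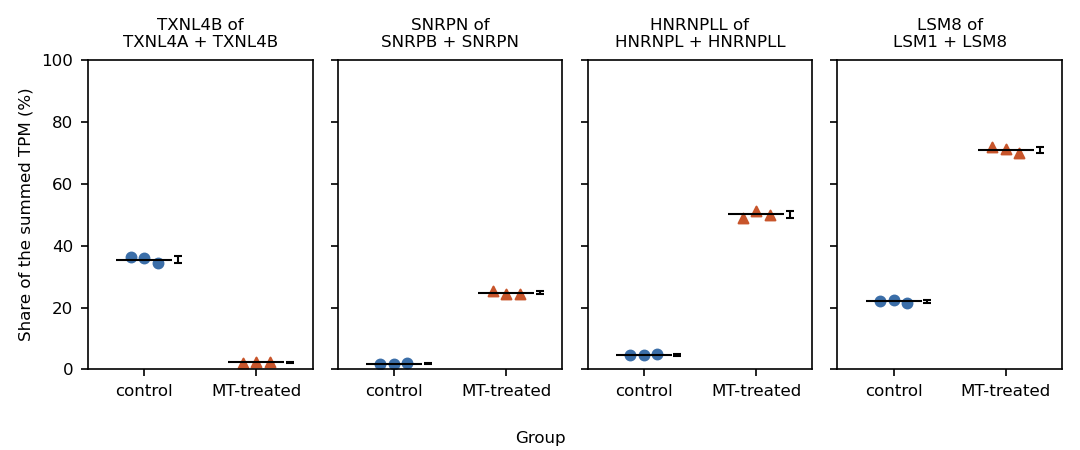
Share of the summed TPM of a gene pair (%, y axis) that came from the gene named first above each panel, in control (circles) and MT-treated (triangles) libraries, with the mean as a line and the SD (n = 3) as a bar. TXNL4B fell from 35.4% to 2.24% of its pair, while SNRPN rose from 1.91% to 24.8%, HNRNPLL from 4.74% to 50.1% and LSM8 from 22% to 71.0%.

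Splicing genes outside these families were examined as 8 lists with 144 rows in the table, of which 137 were tested, 67 were higher and 59 lower, or 88 and 44 after median centring. The median difference over them was 0.08. Among all tested genes, 61.6% were higher and 34.1% lower, or 70.4% and 25.4% after median centring. The counts of each list below are given beside these shares, and no list was tested as a set. Proteins of the snRNPs with other names gave 11 rises and 11 falls among 24 tested rows, where HTATSF1 has 3 identifiers, 2 of them with the same values. USP39, which is needed for the tri-snRNP, had 0.75, 0.66 and 0.78 TPM in control and 39.0, 36.7 and 38.1 TPM after MT treatment. SUGP1, a partner of the branch site complex, had 20.6, 18.4 and 19.6 TPM in control and 0.30, 0.13 and 0.16 TPM after MT treatment. LUC7L2 rose and CHERP fell, with log2 fold changes of 4.96 and -3.20. The U5 helicase SNRNP200 fell from 86.3 to 41.5 TPM on average, whereas the U5 GTPase EFTUD2 was not called, with 42.8, 39.0 and 42.0 TPM in control and 41.6, 36.9 and 40.2 TPM after MT treatment (log2 fold change -0.06, or 0.42 after median centring). PRPF8 rose, so the 3 large U5 proteins did not move together.

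Among the proteins of the PRPF19 complex and the later spliceosome, 18 of 32 were higher and 14 lower. RBM22 and RBMX2 were at or near 0 in control, with 45.1, 43.9 and 45.3 TPM and 47.1, 44.5 and 45.0 TPM after MT treatment. BCAS2, a core subunit of the PRPF19 complex, had 572, 547 and 542 TPM in control and 141, 143 and 135 TPM after MT treatment. DHX16, a helicase, fell with a log2 fold change of -1.71. In the minor spliceosome, which removes a rare class of introns, 5 of 9 genes were higher and 3 lower, with rises of ZRSR2 and CENATAC and falls of SNRNP48 (log2 fold change -3.17) and SCNM1 (log2 fold change -2.58). In the exon junction complex, 6 of 11 were higher and 5 lower. MAGOHB rose from 2.98, 2.81 and 2.61 TPM to 90.3, 89.9 and 85.3 TPM and CASC3 from 0 in all control libraries to 11.2, 11.1 and 11.9 TPM, while UPF3B and PNN fell with log2 fold changes of -1.65 and -1.20.

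For the assembly of snRNPs, 4 of 14 genes were higher and 6 lower, and the balance turned to 8 and 4 after median centring. PRMT5, which methylates Sm proteins, fell from 143, 138 and 144 TPM to 56.3, 52.5 and 56.1 TPM, and DDX20 of the SMN complex fell with a log2 fold change of -1.52. GEMIN8 rose with a log2 fold change of 1.84, and GEMIN5, which recognizes the small nuclear RNA, was listed at 0 in all control libraries, against 10.9, 11.5 and 9.62 TPM after MT treatment. SMN2 was not called, with 15.1, 15.8 and 14.8 TPM in control and 16, 14.7 and 15.4 TPM after MT treatment (log2 fold change 0.02, or 0.49 after median centring and -0.80 after quantile normalization). Of the kinases that phosphorylate SR proteins, 5 of 7 were higher and 2 lower. CLK3 had 0.49, 0.55 and 0.43 TPM in control and 45.3, 44.5 and 45.6 TPM after MT treatment, and DYRK1A had 0.03, 0.05 and 0 TPM in control against 60.2, 63.2 and 64.6 TPM after MT treatment. SRPK1 and SRPK2 had small falls of -0.24 and -0.23 that turned to 0.24 and 0.25 after median centring.

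Among other splicing regulators, 17 of 33 were higher and 13 lower. QKI, which regulates exon choice and RNA stability, had 75.6, 79.8 and 75.6 TPM in control and was listed at 0 in every MT-treated library. TIA1 and PTBP3 were listed at 0 in all control libraries and had 35.3, 30.3 and 32.3 TPM and 29.6, 28.7 and 28.1 TPM after MT treatment. CELF2 fell with a log2 fold change of -2.56 and a wide spread, at 1.59, 9.24 and 5.44 TPM after MT treatment. Of the decapping factors that work with the LSM1 ring, 5 of 7 were lower and 1 was higher, against 34.1% lower among all tested genes. That share moved with level, at 58.2% lower between 20 and 100 TPM and 18.4% below 20 TPM. The decapping factors lie in both ranges. DCP2, the decapping enzyme, fell from 49.0, 45.0 and 43.6 TPM to 3.96, 3.47 and 4.0 TPM, and its partner EDC4 fell with a log2 fold change of -2.33. DCP1A was listed at 0 in all control libraries, against 1.19, 1.67 and 1.13 TPM after MT treatment and the opposite direction after quantile normalization.

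The makeup of the embryos was checked with marker genes, since the pools hold several cell types. Trophectoderm markers summed to between 12062 and 12386 TPM in control and between 11184 and 11583 TPM after MT treatment, over 13 genes, of which PAG11 was at 0 throughout. Most of the sum came from KRT8, which averaged 8695 TPM in control and 6905 TPM after MT treatment, and KRT18, at 2766 and 3654 TPM. Within this list TFAP2A averaged 36.1 TPM in control and 0.49 TPM after MT treatment, TKDP1 16.8 TPM and 0, and CDX2 0 and 16.1 TPM. TFAP2C, GATA3, GATA2, PTGS2 and PAG2 were also higher after MT treatment, and IFNT and IFNT3 were lower. Inner cell mass markers summed to between 402 and 406 TPM and between 414 and 415 TPM over 6 genes, but they did not move together. DPPA3 fell from 196 to 108 TPM on average, while POU5F1 was not called, with averages of 189.8 and 193 TPM. The other genes of the list rose. KLF4 rose from 18.1 to 83.8 TPM, LIN28A from 0 to 15.0 TPM, NANOG from 0 to 8.68 TPM and SOX2 from 0.0067 to 6.54 TPM. Hypoblast markers summed to between 204 and 208 TPM and between 524 and 528 TPM over 6 genes. Most of it came from FN1, which averaged 206 TPM in control and 461 TPM after MT treatment. GATA6 averaged 0.327 and 32.0 TPM, HNF4A 0 and 10.3 TPM and SOX17 0 and 0.163 TPM. PDGFRA was at 0 in all control libraries and averaged 23.2 TPM after MT treatment, and GATA4 was at 0 in all 6. Cumulus and granulosa markers summed to at most 19.3 TPM, nearly all of it from FSHR, with HAS2, PTX3, TNFAIP6, FST, INHA and FOXL2 at 0. Oocyte markers summed to between 60.4 and 91.6 TPM in control and between 14.6 and 16.4 TPM in MT-treated libraries, most of it from KIT, with GDF9, ZP2, ZP3, ZP4, NLRP5, OOSP2 and FIGLA at 0. The part of these differences in the levels of the splicing genes was not tested.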

How the data were processed

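RNA of 6 pools of bovine blastocysts was sequenced, 3 control and 3 MT-treated. The deposited values are TPM of each gene in each library, with 2 decimals. The methods of the authors name fastp, FastQC, STAR and featureCounts. The paper names the genome ARS-UCD1.3, the submitters' processing notes name ARS-UCD1.2, and how counts became TPM is not given in the sources used here. The paper describes Smart-seq2 and the labels a TruSeq kit. TPM is no count, so the count test of the authors was not run and no counting error is given. The methods refer to a table of sequencing depths that was not used here.

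Values were transformed to log2(TPM + 1), a scale that understates changes of low genes. Genes that reached 1 TPM in 3 or more libraries entered lmFit and eBayes with trend in limma 3.58.1 (R 4.3.3), with Benjamini-Hochberg adjustment over all tested genes and a threshold of 0.05. Figures used matplotlib 3.10.9. The fit was tested on simulated normal values in which few genes were changed. The data differ from this, so error rates in them were not measured.

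Members and lists were chosen with earlier results of these data known, and the lists were written from general knowledge. Named were TXNL4A and TXNL4B, the 3 highest and 3 lowest log2 fold changes of called members per role, the 10 highest mean TPM, members at 0 in 1 group and above 5 TPM in the other, members not called, and up to 2 rises and 2 falls of each other list. Further members, SNURF, HTATSF1, SNRNP200, EFTUD2 and SMN2 were named after their values were seen. All 82 member symbols were found in RefSeq (ARS-UCD2.0), of which only the order of genes was used. Replicates are separate production runs per the paper. The p-values measure the spread between the libraries as listed, and how much of it comes from the runs was not tested. The treatments of a run were made side by side, but no source says that equal replicate numbers mark a shared run, so libraries were treated as unpaired. Alternatives were another pseudocount, other filters, quantile normalization, median centring, no trend, a replicate block, and each library left out. The values of 1 member of the U1 class are not reported here.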

Additional observations from a re-analysis of the deposited data

How the results depend on the processing

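Of the 80 tested members, 54 kept their direction and their side of the threshold under every alternative chosen at the start that tested them. PRPF19 is among the 54 and was not tested with a minimum of 5 TPM. Median centring gave 53 higher and 24 lower members and 4 at least 2-fold lower, in place of 35, 39 and 9. All 6 members without a call gained one. Quantile normalization gave 17 members at least 2-fold higher, in place of 23. Restricting the fit to genes above 0 in all 6 libraries, chosen after seeing the data, left 23 higher members, 11 of them at least 2-fold, and 44 higher genes in the other lists in place of 67, because genes at 0 in a control library are left out. Leaving out 1 library in turn gave 34 to 35 higher and 39 lower members, 22 to 23 at least 2-fold higher and 9 to 11 at least 2-fold lower, with 67 to 68 higher and 58 to 61 lower genes in the other lists. HNRNPA3 lost its call without control replicate 1 or without MT-treated replicate 3, and SF3A2, which was not called, ranged from -0.0034 without MT-treated replicate 3 to 0.07 without MT-treated replicate 2. After median centring the direction was reversed for HNRNPD (0.33), HNRNPDL (0.41), HNRNPK (0.11), HNRNPR (0.34), HNRNPU (0.27), LSM3 (0.15), PRPF4 (0.12), SF3B1 (0.10), SNRPC (0.15), SNRPD2 (0.27), SNRPD3 (0.27), SNRPE (0.26), SNRPG (0.17) and SRSF5 (0.13), as log2 fold changes, since the same amount is added to every gene. After quantile normalization it was reversed for HNRNPD (0.06), HNRNPDL (0.25), HNRNPR (0.17), HNRNPU (0.11), HNRNPUL2 (-0.27), LSM14B (-0.17), SF3A2 (-0.18) and U2AF2 (-0.95), and the cause was not tested. These called genes kept their direction but moved under it, to 3.99 for SNRPN, 2.06 for HNRNPLL, 0.97 for SF3A1, 0.93 for PRPF8, 2.25 for PRPF4B, -3.12 for SRSF4 and -4.09 for TXNL4B.

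With the replicate number as a block, 36 members were higher and 39 lower, SRSF9 gained a call (adjusted p = 0.00137 by limma) and no other member changed its call. Same-numbered libraries did not deviate together over the 11953 tested genes (correlations of -0.011, -0.001 and 0.059, with 2 of 6 libraries closest to their own number), so the numbers do not pair the libraries by this measure. Over the 1006 genes that reached 100 TPM in every library, a subset taken once the values had been seen, they were 0.28, 0.388 and 0.494, with 6 of 6 libraries closest to their own number. These are correlations across genes. TPM holds no counts, so counting error for the low genes, such as U2AF2, PRPF3 and PRPF19, is not given.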
